A study of Homo sapiens with 9 samples.

Results

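The comparison set libraries that carry replicate number 1 against libraries that carry replicate number 3 in the SKBR3 siRNA experiment, pairing them by siRNA, to describe what libraries of 1 number share whatever siRNA they received. SKBR3, an established line from a human breast tumour, carries extra copies of ERBB2 (HER2). Each library came from SKBR3 cells given 10 nM siRNA for 48 h with a lipid reagent: siCTRL (a non-targeting control from Horizon Discovery), siPVRL4_1 or siPVRL4_2 (siRNAs against PVRL4 from Integrated DNA Technologies). Set 1 held the siCTRL, siPVRL4_1 and siPVRL4_2 libraries numbered 1, set 3 held those numbered 3, and the libraries numbered 2 (set 2) served as a reference between them. These were 6 of the 9 libraries of the series, plus 3 as reference, and 11150 of the 20812 genes in the table reached an average of 1 RPM across those 6. The labels give only the number, so whether it marks a culture, a transfection, an extraction, a sequencing run or nothing shared is not known, and a p-value below measures spread between these libraries only. Each set holds the same 3 siRNAs, so the siRNA is balanced between sets.

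RPM is the reads of a gene scaled to a fixed total of reads in its library. Reads came from Ion AmpliSeq libraries, in which each gene is measured by 1 amplicon, so RPM levels are compared between libraries and not between genes. The libraries held 10017129 to 10707773 reads and 13758 to 13996 genes with a read. The 100 most abundant genes of each library took 26.4% to 27.7% of reads in set 1, 27.4% to 28.4% in set 2 and 28.6% to 28.96% in set 3, so sets 1 and 3 did not overlap in this measure. The cell type was checked by summed markers. A list of 25 luminal epithelial genes summed to between 13241 and 16586 RPM over the 9 libraries. The leukocyte list, 15 genes in the table including the red cell globin gene HBB, summed to 4.93 to 9.38 RPM in set 1 and 6.11 to 8.38 RPM in set 3. Its members PTPRC, CD3D, CD2, MS4A1 and HBB had no read in any library. The 14 fibroblast and stromal markers summed to 8.69 to 9.68 RPM in set 1 and 10.7 to 14.2 RPM in set 3, with PDGFRA at no read. The sets did not overlap in these stromal markers, and their part in the results was not tested. The 10 endothelial markers summed to 42.1 to 44.7 RPM in set 1 and 33.3 to 45.4 RPM in set 3, with no read of CLDN5, EMCN or TIE1, and the 14 basal epithelial markers to 173 to 219 RPM and 210 to 261 RPM, with no read of CDH3.

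Cultured cells shift their RNA with how densely they grow, how recently they were fed and how many of them are copying DNA. E2F transcription factors switch on genes for DNA replication as cells enter S phase, SREBP factors switch on cholesterol synthesis when membrane sterol is low, and HIF factors switch on their targets when oxygen is low. Replicates of one experiment can differ in any of these programmes, and such differences add to the spread against which a treatment is tested.

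PVRL4 (nectin-4), the adhesion molecule that both siRNAs target, was measured first as a check of the labels. In set 1 it stood at 9.93 RPM with siCTRL, 5.99 RPM with siPVRL4_1 and 3.39 RPM with siPVRL4_2. In set 3 the corresponding values were 11.6, 4.67 and 2.58 RPM, and in set 2 they were 7.86, 4.36 and 2.91 RPM. PVRL4 was lower with both siRNAs than with siCTRL in every set. The PVRL4 level left with siPVRL4_1 was 60.3%, 55.4% and 40.2% of the siCTRL library of sets 1, 2 and 3, and with siPVRL4_2 it was 34.2%, 37.0% and 22.1%. Over the 3 siRNA pairs PVRL4 was not shown to differ between sets 1 and 3 (log2 difference 0.13 ± 0.17 SE, adjusted p = 0.674 by limma, exact two-sided sign-flip permutation p = 0.5, where the smallest possible is 0.25). ERBB2, the amplified receptor of this line, was at 710, 723 and 712 RPM in set 1 and at 832, 887 and 549 RPM in set 3 in the order siCTRL, siPVRL4_1, siPVRL4_2. The sets overlapped for ERBB2 (log2 difference -0.05 ± 0.10 SE, adjusted p = 0.806), and the sign of that difference changed in 6 of the alternatives tried.

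Differences between sets 1 and 3 were spread over many genes and most were small. Of the 11150 genes, 578 (5.18%) were higher and 418 (3.75%) were lower in set 1 at an adjusted p under 0.05, by limma on log2(RPM + 1) with siRNA group as a block over all 9 libraries. The median size of a called log2 difference was 0.45, and 6 higher and 27 lower genes differed by at least 1. The median over all tested genes was 0.05. Among genes called, 992 of 996 moved the same way in all 3 siRNA groups, against 45.6% of all genes, a share that the call itself favours. The values of the 3 libraries of set 1 lay above all 3 of set 3 for 14.7% of all tested genes and below them for 9.21%. Among called genes this held for 513 of the 578 higher and 362 of the 418 lower.

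The split between higher and lower depended on the scaling: scaling the RPM by TMM, an edgeR method that centres libraries on the bulk of genes, gave 348 higher and 567 lower genes, so 38.0% of calls were higher, against 58.0% as deposited. Leaving out single libraries lowered the counts, most of all siPVRL4_2 replicate 1 (117 higher, 159 lower), then siPVRL4_1 replicate 3 (174 and 160), siCTRL replicate 3 (199 and 175), siPVRL4_1 replicate 1 (243 and 257), siPVRL4_2 replicate 3 (304 and 284) and, for lower genes, siCTRL replicate 1 (406 and 275).

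**Figure D1:**
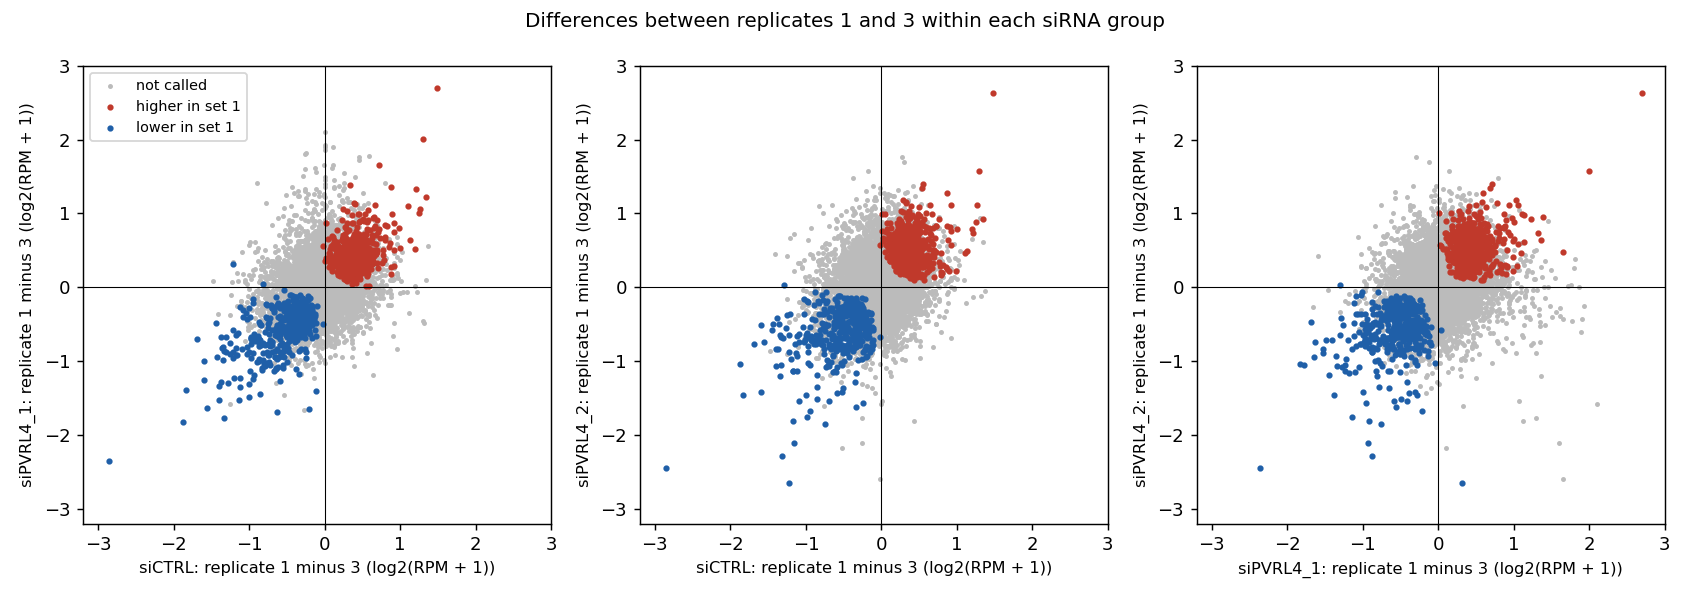
Each point is 1 of the 11150 tested genes, and each axis is the difference between replicates 1 and 3 of 1 siRNA group on the log2(RPM + 1) scale. Grey genes were not called, red genes (578) were called higher and blue genes (418) called lower in set 1. Called genes sit mostly in the lower left and upper right corners, as the call requires similar differences in the groups.

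The differences of the 3 pairs, which share no library, had a Pearson correlation across genes of 0.41 for siCTRL and siPVRL4_1, 0.38 for siCTRL and siPVRL4_2 and 0.31 for siPVRL4_1 and siPVRL4_2. These describe 11150 genes, which are not independent replicates. For the 7910 genes with at least 10 RPM, replicate number took a median of 35.1% of a gene's sum of squares over the 9 libraries, siRNA group 25.8% and the residual 26.9%. Number and siRNA group have 25% of the degrees of freedom each and the residual 50%. Those are mean shares without any effect, and a median over genes can lie below them, so they are a rough guide only. Replicate number took a larger share than siRNA group in 4482 of these genes (56.7%).

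Set 2 fell between sets 1 and 3 for 457 of the 578 higher genes and 334 of the 418 lower genes, 79.4% of calls against 39.8% of all genes. A larger distance between sets 1 and 3 leaves more room between them, so this share is a description. On a scale from 0 at set 3 to 1 at set 1, the median position of set 2 was 0.54 for higher and 0.37 for lower genes. Set 1 against set 2 gave 183 higher (1.64%) and 295 lower genes (2.65%). Set 2 against set 3 gave 214 higher (1.92%) and 80 lower genes (0.717%). These contrasts share libraries with each other and with set 1 against set 3.

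The protein-coding genes with the largest increases in set 1 included signalling and junction genes. ID1, an inhibitor of bHLH transcription factors that BMP signalling induces, was at 26.4, 43.0 and 16.7 RPM in set 1 with siCTRL, siPVRL4_1 and siPVRL4_2, and at 10.2, 9.99 and 4.96 RPM in set 3. All set 1 values of ID1 exceeded all set 3 values, and within each set the siPVRL4_2 library was lowest. The ID1 difference was 3.08-fold (log2 1.62 ± 0.15 SE, adjusted p = 2.45e-05), with set 2 at 8.53 to 13.8 RPM. WNT5A, a secreted ligand of noncanonical Wnt signalling, was at 36.3, 30.0 and 34.7 RPM in set 1 and 14.5, 13.9 and 15.6 RPM in set 3, with 25.01, 25.5 and 28.2 RPM between them in set 2. The 3 levels of WNT5A did not overlap (2.21-fold between sets 1 and 3, log2 1.14 ± 0.11 SE, adjusted p = 3.04e-05). FAM13B was at 21.9, 20.8 and 18.1 RPM in set 1, 20.6, 16.9 and 15.99 RPM in set 2 and 7.98, 8.31 and 9.06 RPM in set 3. For FAM13B sets 1 and 2 lay close together and set 3 stood apart (log2 1.16 ± 0.13 SE, adjusted p = 0.000145).

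TSPAN1, a tetraspanin of the cell surface, averaged 38.5 ± 4.52 RPM (SD, n = 3) in set 1 and 18.1 ± 1.66 RPM in set 3. NRP1, a co-receptor for semaphorins and VEGF, averaged 46.6 ± 5.68 and 23.9 ± 1.52 RPM, and set 2 was at 22.3 RPM, so for NRP1 only set 1 was high. TJP1 (ZO-1), the tight junction scaffold, averaged 40.2 ± 11.2 and 23.5 ± 6.63 RPM, and LSR, a protein of tricellular junctions, 41.0 ± 1.86 and 24.1 ± 0.494 RPM. DEGS1, the desaturase that completes ceramide synthesis, averaged 274 ± 47.5 RPM in set 1, 280 RPM in set 2 and 159 ± 23.7 RPM in set 3. GPX2, a glutathione peroxidase, averaged 15.0 ± 5.12 and 7.54 ± 1.15 RPM. TARP and ZNF107 completed the 12 largest increases, at log2 0.96 ± 0.13 SE and 0.78 ± 0.16 SE. The log2 differences of the genes in this paragraph ran from 0.74 for LSR to 1.04 for TSPAN1 and their adjusted p from 9.04e-05 for DEGS1 to 0.00867 for ZNF107. ZNF107 was the one of the 12 whose libraries overlapped between the sets, since its siPVRL4_1 libraries were high in both. Leaving out siPVRL4_2 replicate 1 ended the call of GPX2 (adjusted p = 0.0565).

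The largest decrease in set 1 was that of SCGB2A2 (mammaglobin), a small secreted protein of breast epithelium. SCGB2A2 was at 13.2, 16.8 and 20.7 RPM in set 1, 25.2, 21.4 and 31.1 RPM in set 2 and 102, 90.2 and 117 RPM in set 3, again in the order siCTRL, siPVRL4_1, siPVRL4_2. All 3 sets were separate for SCGB2A2, and set 2 lay near set 1 (5.86-fold lower in set 1 than in set 3, log2 -2.55 ± 0.12 SE, adjusted p = 2.37e-09). PPP1R1B (DARPP-32), a phosphatase inhibitor, was at 22.7, 18.3 and 31.9 RPM in set 1 and 85.8, 67.3 and 66.8 RPM in set 3. The PPP1R1B sets did not overlap, and set 2 at 27.3 to 48.6 RPM reached into the range of set 1 (log2 -1.58 ± 0.14 SE, adjusted p = 1.75e-05). STAC2, an adaptor protein, averaged 10.3 ± 2.97 RPM in set 1, 9.09 RPM in set 2 and 26.7 ± 5.07 RPM in set 3 (log2 -1.31 ± 0.17 SE, adjusted p = 0.000367).

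PDK4, the kinase that shuts off pyruvate dehydrogenase when fatty acids are burned, was at 5.73, 9.56 and 7.29 RPM in set 1, 6.06, 9.68 and 7.85 RPM in set 2 and 23.1, 26.6 and 21.8 RPM in set 3. Sets 1 and 2 lay close together and PDK4 was high in set 3 alone (log2 -1.56 ± 0.14 SE between sets 1 and 3, adjusted p = 1.75e-05). SLC2A10, a glucose transporter, averaged 5.53 ± 1.99 RPM in set 1 and 15.5 ± 1.77 RPM in set 3. AZGP1, a secreted zinc-binding glycoprotein, averaged 18.8 ± 4.81 and 43.0 ± 3.08 RPM, RASD2, a small GTPase, 10.8 ± 1.87 and 24.6 ± 1.78 RPM, and CLSTN3, a calsyntenin, 6.64 ± 1.95 and 14.3 ± 2.26 RPM. KIAA1107 averaged 7.68 ± 2.18 and 19.7 ± 0.389 RPM, and leaving out siPVRL4_2 replicate 1 ended its call (adjusted p = 0.0506). Set 2 averaged between sets 1 and 3 for SLC2A10, AZGP1, RASD2, CLSTN3 and KIAA1107.

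**Figure D2:**
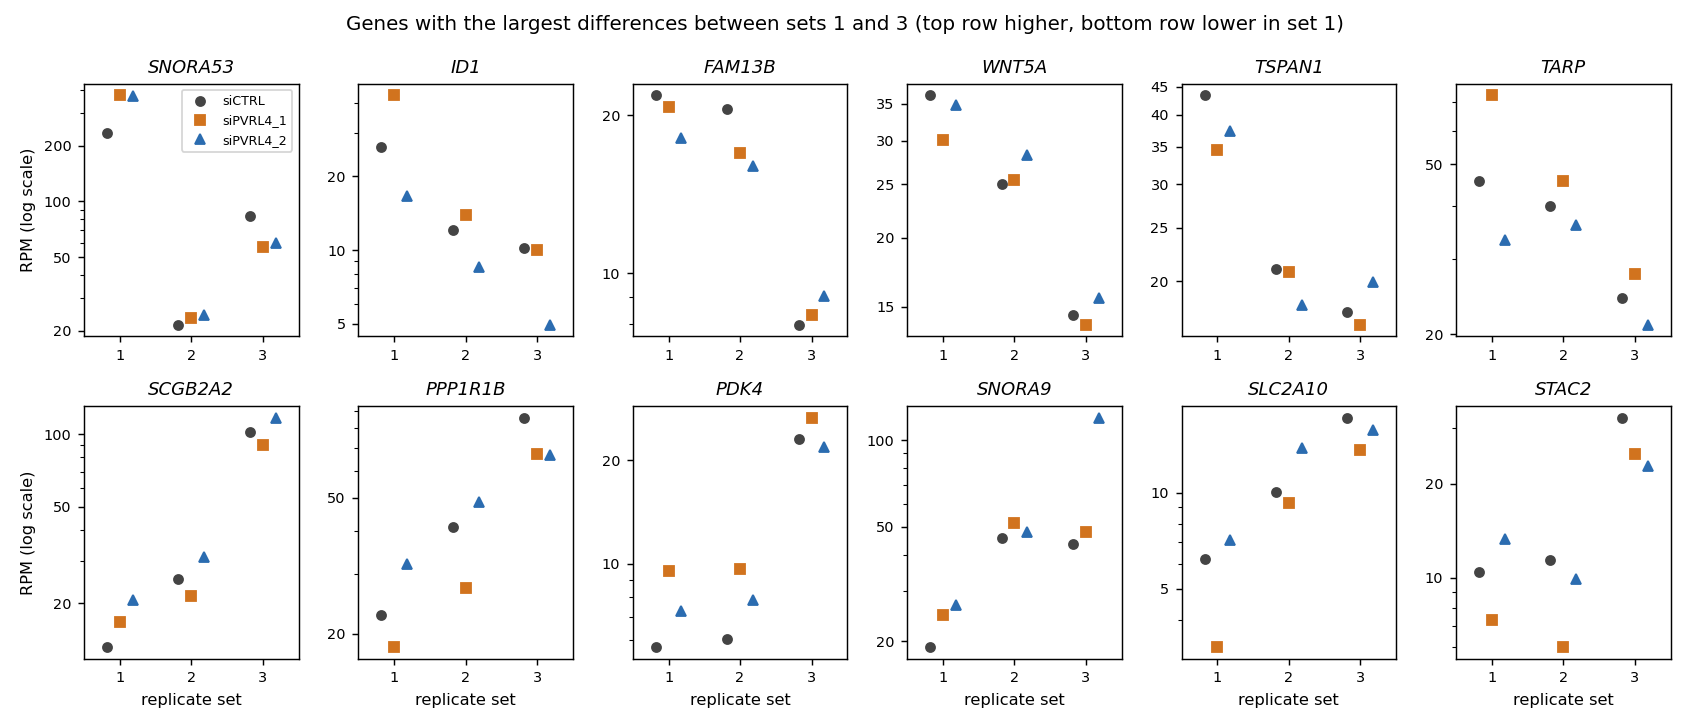
Levels in RPM (log axis) of the 6 genes with the largest increase (top row) and the 6 with the largest decrease (bottom row) in set 1, by replicate set, with 1 point per library and the siRNA group shown by colour and shape. SCGB2A2 lies at 13.2 to 20.7 RPM in set 1 and at 90.2 to 117 RPM in set 3, and SNORA53 is lowest in set 2.

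The largest increase of all belonged to SNORA53, a small nucleolar RNA of the H/ACA class, which guide the change of uridine to pseudouridine in other RNAs. SNORA53, SNORA9 and SCARNA18 were the small RNA genes among the 24 genes of largest difference, and their annotated sequences are shown because each is an amplicon target inside another gene. The sequences are from GENCODE release 29 transcripts on GRCh38, 5′ to 3′ with the ACA box, where it stands 3 bases from the 3′ end, in capitals.
SNORA53: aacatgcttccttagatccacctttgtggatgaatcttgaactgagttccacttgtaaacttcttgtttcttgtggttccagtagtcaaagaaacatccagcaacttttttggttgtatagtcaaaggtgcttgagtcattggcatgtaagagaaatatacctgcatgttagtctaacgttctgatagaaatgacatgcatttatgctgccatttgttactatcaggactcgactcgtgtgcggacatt
SNORA9: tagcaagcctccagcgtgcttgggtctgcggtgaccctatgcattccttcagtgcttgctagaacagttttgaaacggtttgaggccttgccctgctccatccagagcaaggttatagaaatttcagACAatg
SCARNA18: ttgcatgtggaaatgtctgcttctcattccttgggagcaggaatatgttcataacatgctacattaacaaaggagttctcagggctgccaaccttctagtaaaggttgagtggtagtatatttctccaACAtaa
SNORA53 lies at chr12:98599635-98599883 on the plus strand, within the SLC25A3 gene. SNORA9 lies at chr7:44985378-44985510 on the minus strand within SNHG15, and SCARNA18, a guide of Cajal bodies, at chr5:83064204-83064337 on the minus strand within TMEM167A. The files give hg19 as build and an amplicon name per gene, so where the amplicon sits in each sequence is not known.

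SNORA53 was at 235, 376 and 373 RPM in set 1, 21.6, 23.4 and 24.2 RPM in set 2 and 83.2, 57.1 and 59.3 RPM in set 3. The 3 sets were far apart and set 2, not set 3, was lowest (4.83-fold between sets 1 and 3, log2 2.27 ± 0.16 SE, adjusted p = 1.11e-06). SLC25A3, the mitochondrial phosphate carrier gene around it, averaged 378 ± 30.3 RPM in set 1 and 343 ± 29.7 RPM in set 3 (log2 0.14, adjusted p = 0.381). SNORA9 went the other way, at 19.1, 24.7 and 26.9 RPM in set 1 and 43.7, 47.8 and 119 RPM in set 3, with siPVRL4_2 replicate 3 far above the rest (log2 -1.40 ± 0.20 SE, adjusted p = 0.00074). SCARNA18 was at 12.2, 13.7 and 14.3 RPM in set 1 and 28.7, 26.7 and 52.6 RPM in set 3, with the same library highest (log2 -1.30 ± 0.18 SE, adjusted p = 0.000651). Both were still called without that library.

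The family of 92 snoRNA and scaRNA genes in the table was examined after these values were seen. Of 82 tested, 2 were higher (SNORA53 and SCARNA17) and 18 lower in set 1, beside 5.18% and 3.75% of all genes, with a median log2 difference of -0.17. The median was -0.15 in the siCTRL pair, 0.09 in the siPVRL4_1 pair and -0.37 in the siPVRL4_2 pair, so the pairs differed in sign. Summed over the 92 genes, set 1 held 4221, 4971 and 4344 RPM, set 2 5186, 5243 and 5206 RPM, and set 3 5387, 5630 and 8245 RPM. The siPVRL4_2 replicate 3 library stood apart, being the highest library for 46 of the 82 genes. How many of the 18 lower calls remain without that library was not counted. For 14 of the 20 called genes, a tested gene around them on the same strand was found in the annotation. The other called genes are not shown to lack one, since a gene not matched by name there would be missed. The surrounding gene was called for 1 of the 14, EIF4A2 around SNORA63. EIF4A2 was at 432 ± 38.2 RPM in set 1 and 674 ± 123 RPM in set 3 (log2 -0.63, adjusted p = 0.000258 by limma).

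Part of the S phase genes were higher in set 1. Of 39 genes of DNA replication and its control, all tested, 17 passed the test and all 17 were higher in set 1, beside 5.18% of all genes, and the median log2 difference was 0.31, beside 0.05 for all genes. The medians of the siCTRL, siPVRL4_1 and siPVRL4_2 pairs were 0.25, 0.32 and 0.29. RRM2, the ribonucleotide reductase subunit that supplies deoxynucleotides, was at 417, 424 and 448 RPM in set 1, 320, 303 and 324 RPM in set 2 and 301, 298 and 287 RPM in set 3. Sets 1 and 3 were separate for RRM2 and set 2 lay nearer set 3 (log2 0.54 ± 0.07 SE, adjusted p = 0.00074). CDC6, which loads the replicative helicase, was at 561, 538 and 553 RPM in set 1 and 400, 376 and 427 RPM in set 3, with set 2 at 444 to 451 RPM between them (log2 0.46 ± 0.08 SE, adjusted p = 0.00253). MCM7, a subunit of that helicase, averaged 184 ± 15.2 and 136 ± 5.56 RPM (adjusted p = 0.00737), and ORC1, of the origin recognition complex, 26.2 ± 3.76 and 16.9 ± 1.41 RPM (adjusted p = 0.0077).

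The S phase count was 11 of 39 with TMM scaling, and 6 without siCTRL replicate 3, 4 without siPVRL4_1 replicate 1, and 3 without siPVRL4_1 replicate 3 or without siPVRL4_2 replicate 1. Over all 11150 genes the higher calls were 348 with TMM scaling, in place of 578. Without these libraries, in the same order, they were 199, 243, 174 and 117. Counts of the other lists with a library left out also stand beside fewer calls over all genes. RRM2 and CDC6 were called in all 25 alternatives, while the call of MCM7 ended without siPVRL4_1 replicate 3 (0.0581) or siPVRL4_2 replicate 1 (0.0586), and that of ORC1 without siPVRL4_2 replicate 1 (0.0619), these being adjusted p-values.

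Promoters of the replication genes were searched because 17 of these genes were higher in set 1. The motif was TTTCCCGC or TTTGGCGC, the letters of common E2F sites, on either strand, in the 300 bases from 250 before to 50 after each RefSeq gene start (GRCh38.p14). It was present in 15 of the 34 tested S phase genes with a promoter entry (44.1%) and in 2.31% of 27305 promoters. E2F factors switch on replication genes in general, so the share in this list follows from how it was chosen and says nothing about the sets. The 27305 promoters were also not limited to tested genes. Of the 14 called genes with an entry, 8 held the motif, and whether called and uncalled members differ was not tested. The promoters of CDC6 and MCM7, which hold a match, and of RRM2, which holds none, are shown 5′ to 3′ in the direction of the gene with the match in capitals.
CDC6: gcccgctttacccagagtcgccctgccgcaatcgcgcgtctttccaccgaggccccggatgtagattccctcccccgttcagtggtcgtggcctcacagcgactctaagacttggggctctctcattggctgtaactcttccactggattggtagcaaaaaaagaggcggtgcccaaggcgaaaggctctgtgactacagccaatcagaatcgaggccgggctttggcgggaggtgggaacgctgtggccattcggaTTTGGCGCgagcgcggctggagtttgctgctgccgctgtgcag
MCM7: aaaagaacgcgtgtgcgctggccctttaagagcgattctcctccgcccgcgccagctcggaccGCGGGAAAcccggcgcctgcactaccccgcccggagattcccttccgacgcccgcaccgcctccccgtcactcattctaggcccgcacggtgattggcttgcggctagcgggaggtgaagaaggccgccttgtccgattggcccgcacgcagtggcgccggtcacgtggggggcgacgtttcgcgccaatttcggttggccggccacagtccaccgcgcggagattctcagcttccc
RRM2: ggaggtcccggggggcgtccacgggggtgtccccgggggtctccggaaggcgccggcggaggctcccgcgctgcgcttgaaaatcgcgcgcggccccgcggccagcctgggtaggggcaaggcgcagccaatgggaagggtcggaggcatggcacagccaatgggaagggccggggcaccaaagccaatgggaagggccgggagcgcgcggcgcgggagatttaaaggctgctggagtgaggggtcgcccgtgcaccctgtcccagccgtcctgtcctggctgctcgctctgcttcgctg
These lie at chr17:40287629-40287928 on the plus strand for CDC6, chr7:100101348-100101647 on the minus strand for MCM7 and chr2:10122489-10122788 on the plus strand for RRM2. A match describes letters and not binding. Only these letters were searched, so a window without a match, as for RRM2, is not shown to lack an E2F site. Whether a match goes with the difference between the sets was not tested.

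The lists also held genes of later cell cycle steps. Of 35 mitosis genes, 4 were higher and 1 lower, beside 5.18% and 3.75% of all genes (median log2 0.12). AURKA, a spindle pole kinase, averaged 73.5 ± 9.22 RPM in set 1 and 54.7 ± 9.27 RPM in set 3, TPX2, which activates it, 126 ± 12.04 and 100 ± 9.66 RPM, and PLK1, another mitotic kinase, 160 ± 4.02 and 122 ± 22.8 RPM. CDC25C, a phosphatase for entry into mitosis, was lower at 10.2 ± 2.04 against 14.8 ± 0.632 RPM. Their adjusted p-values were 0.0119, 0.0215, 0.0225 and 0.0288. No mitosis gene was called higher without siPVRL4_1 replicate 3, 1 was without siPVRL4_2 replicate 1, and 2 were without siCTRL replicate 1, siCTRL replicate 3, siPVRL4_1 replicate 1 or siPVRL4_2 replicate 3. AURKA lost its call without siCTRL replicate 1, siCTRL replicate 3 or siPVRL4_1 replicate 3, TPX2 without those or siPVRL4_1 replicate 1 or siPVRL4_2 replicate 1, and PLK1 without replicate 1 or 3 of either PVRL4 siRNA (adjusted p up to 0.0737, 0.104 and 0.117). TPX2 was also not called by edgeR (adjusted p = 0.0511) or DESeq2 (0.0571). CDC25C lost its call without any 1 of 5 libraries (siCTRL replicate 3 and replicates 1 and 3 of both PVRL4 siRNAs), at adjusted p from 0.0637 to 0.154. Whether the S phase and mitosis lists differ was not tested.

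Histone genes transcribed in S phase gave 4 calls of 19 tested, all higher in set 1, beside 5.18% of all genes (median log2 0.23), with set 2 lowest for most of the called ones. HIST1H2AM averaged 355 ± 6.002 RPM in set 1, 237 RPM in set 2 and 277 ± 11.3 RPM in set 3 (adjusted p = 0.00994). HIST2H2BE averaged 748 ± 49.9, 529 and 584 ± 37.4 RPM in the same order, HIST1H2BD 997 ± 85.4, 705 and 805 ± 83.0 RPM, and HIST1H2BK 168 ± 16.6, 133 and 130 ± 10.4 RPM. The median was 0.28 in the siCTRL pair, 0.31 in the siPVRL4_1 pair and -0.03 in the siPVRL4_2 pair. The count was 0 without siPVRL4_1 replicate 1 or replicate 3, 1 without siCTRL replicate 3 and 7 without siPVRL4_2 replicate 3. The 4 named histone genes each lost their call without siCTRL replicate 3, siPVRL4_1 replicate 1 or siPVRL4_1 replicate 3, HIST1H2BD also without siCTRL replicate 1 and HIST1H2BK without siPVRL4_2 replicate 1. HIST1H2BD lost its call with TMM scaling (adjusted p = 0.0659) and by edgeR (0.0641) as well. Histone genes have near-identical copies, so a read may not belong to 1 copy alone.

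Cholesterol genes passed the test for 8 of 23 tested, all higher in set 1, beside 5.18% of all genes (median log2 0.23). INSIG1, which holds the SREBP sensor in the endoplasmic reticulum and is itself an SREBP target, was at 40.8, 41.0 and 30.6 RPM in set 1 and 28.3, 25.8 and 17.6 RPM in set 3. The INSIG1 sets were separate, with siPVRL4_2 lowest in each (log2 0.64 ± 0.12 SE, adjusted p = 0.00525). HMGCS1, which makes HMG-CoA, was at 48.5, 60.5 and 60.6 RPM in set 1, 40.9, 37.6 and 35.5 RPM in set 2 and 39.8, 34.3 and 37.9 RPM in set 3, so set 1 alone was high (log2 0.58 ± 0.11 SE, adjusted p = 0.00674). IDI1, an isomerase of the isoprenoid steps, averaged 159 ± 9.52 and 124 ± 11.7 RPM in sets 1 and 3. The motif TCACNCCAC, letters of a sterol response element, was in 1 of the 16 tested cholesterol genes with a promoter entry (6.25%) and in 1.15% of all promoters, and in 0 of the 4 called genes with an entry.

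The cholesterol count was 5 without siCTRL replicate 1, 2 without siCTRL replicate 3, 4 without siPVRL4_1 replicate 1, 3 without siPVRL4_1 replicate 3 and 3 without siPVRL4_2 replicate 1. Over all genes the higher calls without these libraries were 406, 199, 243, 174 and 117, in place of 578. INSIG1 kept its call without any single library. HMGCS1 lost it without siPVRL4_1 replicate 3 (adjusted p = 0.0565) or siPVRL4_2 replicate 1 (0.0555), and IDI1 without siCTRL replicate 3, siPVRL4_1 replicate 3 or siPVRL4_2 replicate 1 (0.0531 to 0.0641).

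Genes of low oxygen and of nutrient state held several of the genes that were lower in set 1. Of 18 hypoxia targets tested, 5 were lower and 2 higher, beside 3.75% and 5.18% of all genes (median log2 -0.15). EGLN3, the oxygen-sensing prolyl hydroxylase that HIF itself induces, was at 11.8, 10.6 and 11.8 RPM in set 1, 22.9, 18.6 and 13.5 RPM in set 2 and 32.9, 28.4 and 25.7 RPM in set 3. The 3 sets of EGLN3 did not overlap (log2 -1.27 ± 0.14 SE, adjusted p = 9.04e-05). BNIP3 and BNIP3L, mitophagy receptors, averaged 180 ± 18.4 and 13.9 ± 3.85 RPM in set 1 against 250 ± 30.1 and 26.3 ± 6.32 RPM in set 3 (adjusted p = 0.00262 and 0.00257). WSB1, a ubiquitin ligase subunit, went the other way at 32.3 ± 1.31 against 20.4 ± 2.32 RPM (adjusted p = 0.00525). EGLN3, BNIP3, BNIP3L and WSB1 kept their calls without any single library, while the count of lower hypoxia targets was 3 without siPVRL4_1 replicate 1 or replicate 3. The count of higher ones was 1 without siCTRL replicate 1 or 3, siPVRL4_1 replicate 1 or 3, or any siPVRL4_2 library.

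Of 8 targets of MondoA, a transcription factor that reads glucose phosphates, 3 passed the test, all lower in set 1, beside 3.75% of all genes (median log2 -0.23). These were PDK4, described above and also a target of fatty acid signalling, KLHL24 at 22.7 ± 2.91 against 31.7 ± 2.87 RPM and HBP1 at 75.5 ± 8.65 against 94.5 ± 12.2 RPM. The median of the MondoA list was -0.28 in the siCTRL pair, 0.06 in the siPVRL4_1 pair and -0.29 in the siPVRL4_2 pair, so the pairs differed in sign. Of the 8 targets, 2 had a positive difference, the larger at log2 0.44. At an unadjusted limma p under 0.05, 1 of the 8 was higher and 4 were lower in set 1. Without siCTRL replicate 1, siCTRL replicate 3 or siPVRL4_1 replicate 3, PDK4 was the only MondoA target called. KLHL24 and HBP1 each lost their call without any 1 of 5 libraries, both of them without siCTRL replicates 1 and 3 and siPVRL4_1 replicates 1 and 3, KLHL24 also without siPVRL4_2 replicate 3 and HBP1 without siPVRL4_2 replicate 1 (adjusted p up to 0.0978 and 0.111). Of 26 amino acid response genes, 5 were higher and 1 lower, beside 5.18% and 3.75% of all genes (median log2 0.02). SLC7A5 and SLC3A2, the subunits of a leucine transporter, averaged 427 ± 35.4 and 535 ± 30.6 RPM in set 1 against 302 ± 27.0 and 398 ± 18.6 RPM in set 3 (adjusted p = 0.00329 and 0.00448). DDIT4 (REDD1), an inhibitor of mTORC1 that stress and low oxygen induce, was at 104, 107 and 111 RPM in set 1, 170, 146 and 156 RPM in set 2 and 152, 144 and 148 RPM in set 3. For DDIT4 only set 1 was low (log2 -0.47 ± 0.08 SE, adjusted p = 0.00345). GARS, glycyl-tRNA synthetase, averaged 187 ± 9.90 and 140 ± 16.5 RPM and lost its call without siPVRL4_1 replicate 3 (adjusted p = 0.0627) or siPVRL4_2 replicate 1 (0.0874). The higher count of this list was 3 with TMM scaling and 2 or 3 without siCTRL replicate 2 or 3 or any 1 of siPVRL4_1 replicates 1 to 3 and siPVRL4_2 replicates 1 and 2. Its lower count was 2 with TMM scaling or without siPVRL4_1 replicate 1.

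Genes of protein degradation and folding were among those higher in set 1. Of 30 proteasome subunits, 9 passed the test, all higher in set 1, beside 5.18% of all genes (median log2 0.20). PSMC2, an ATPase of the regulatory cap, averaged 111 ± 10.1 RPM in set 1 and 79.6 ± 4.39 RPM in set 3 (adjusted p = 0.00656). PSMD12 and PSMD11, other cap subunits, averaged 251 ± 24.4 and 175 ± 11.2 RPM against 192 ± 7.09 and 135 ± 2.93 RPM, and PSMB6, a subunit of the catalytic core, 135 ± 11.2 against 104 ± 6.28 RPM. The proteasome count was 5 without siCTRL replicate 1, 2 without siCTRL replicate 3, 4 without siPVRL4_1 replicate 1, 2 without siPVRL4_1 replicate 3 and 1 without siPVRL4_2 replicate 1. Higher calls over all genes without these libraries were 406, 199, 243, 174 and 117, in place of 578. Without siPVRL4_2 replicate 1, PSMC2 was at adjusted p = 0.0527 and PSMD12 at 0.0611. PSMB6 lost its call without any 1 of 4 libraries (siCTRL replicate 3, siPVRL4_1 replicates 1 and 3, siPVRL4_2 replicate 1) and PSMD11 without any 1 of 5 (siCTRL replicates 1 and 3, siPVRL4_1 replicate 3, siPVRL4_2 replicates 1 and 3).

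Of 17 cytosolic heat shock genes, 4 passed the test, all higher in set 1, beside 5.18% of all genes (median log2 0.16), and 2 others were lower with TMM scaling. HSPA1A, the inducible HSP70, was at 342, 500 and 387 RPM in set 1, 191, 184 and 175 RPM in set 2 and 254, 296 and 263 RPM in set 3. Set 2 was lowest for HSPA1A and no set overlapped another (log2 0.58 ± 0.09 SE between sets 1 and 3, adjusted p = 0.00257). HSPA1B, a near-identical copy that cannot be told apart with certainty, followed the same order at 76.1 ± 22.9, 31.5 and 48.0 ± 9.53 RPM, and lost its call without siCTRL replicate 3, siPVRL4_1 replicate 1 or siPVRL4_1 replicate 3 (adjusted p = 0.0657 to 0.0811). HSPA8, the constitutive HSP70, was at 1692, 1939 and 1887 RPM in set 1 and 1410, 1446 and 1235 RPM in set 3 (adjusted p = 0.00737, and 0.0583 without siPVRL4_2 replicate 1). DNAJB1, an HSP70 partner, averaged 107 ± 11.5 and 84.8 ± 12.3 RPM, and its call (adjusted p = 0.0471) ended without any 1 of 7 libraries, all but siCTRL replicates 1 and 2. The DNAJB1 call also ended with TMM scaling (adjusted p = 0.0733), by edgeR (0.0723) and by DESeq2 (0.0980), and in 20 of the 25 alternatives in all. The higher count was 3 with TMM scaling. It was 2 without siCTRL replicate 3, siPVRL4_1 replicate 1, siPVRL4_1 replicate 3 or siPVRL4_2 replicate 1, and 1 heat shock gene was called lower without siPVRL4_2 replicate 2 or 3.

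Of 15 NRF2 targets, 4 passed the test, all higher in set 1, beside 5.18% of all genes (median log2 0.21). GCLM, of glutathione synthesis, averaged 53.6 ± 8.87 and 39.3 ± 3.82 RPM in sets 1 and 3, SRXN1, which repairs peroxiredoxins, 48.4 ± 4.58 and 35.7 ± 3.81 RPM, and TKT, of the pentose phosphate pathway, 561 ± 61.8 and 445 ± 32.5 RPM. None of the 15 was called without siPVRL4_2 replicate 1 and 1 was called without siCTRL replicate 3 or siPVRL4_1 replicate 3. GCLM, SRXN1 and TKT each lost their call without any of these 3 libraries, SRXN1 and TKT also without siPVRL4_2 replicate 3 and TKT without siPVRL4_1 replicate 1. TKT also lost its call with TMM scaling (adjusted p = 0.0613) and by edgeR (0.0616).

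Of 15 targets of TGF-beta family signalling, 7 were higher and 1 lower, beside 5.18% and 3.75% of all genes (median log2 0.22). ID1, described above, led them. THBS1, a matrix protein, averaged 326 ± 3.08 RPM in set 1, 366 RPM in set 2 and 243 ± 14.0 RPM in set 3 (log2 0.42 ± 0.07 SE, adjusted p = 0.00345), so set 3 alone was low. BAMBI, a decoy receptor, averaged 28.1 ± 6.69, 14.8 and 16.6 ± 1.44 RPM, so set 1 alone was high, and SMAD6, an inhibitor of BMP signalling, 18.8 ± 1.13, 16.7 and 12.5 ± 1.34 RPM. ID1 and THBS1 kept their calls without any single library. BAMBI lost its call without siCTRL replicate 1, siCTRL replicate 3, siPVRL4_1 replicate 1 or siPVRL4_1 replicate 3 (adjusted p = 0.0563 to 0.0701), and SMAD6 without siPVRL4_1 replicate 3 (0.0694) or siPVRL4_2 replicate 1 (0.107). The higher count was 3 without siPVRL4_1 replicate 1, siPVRL4_1 replicate 3 or siPVRL4_2 replicate 1, and 4 without siPVRL4_2 replicate 3. The lower count was 2 without siPVRL4_1 replicate 1 and 0 without siCTRL replicate 1, siCTRL replicate 3, siPVRL4_1 replicate 3 or siPVRL4_2 replicate 1.

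Of 49 cytosolic ribosomal protein genes, 7 passed the test, all lower in set 1, beside 3.75% of all genes, and the median log2 difference was -0.12. RPL27 was at 1383, 1207 and 1402 RPM in set 1, 1475, 1765 and 1848 RPM in set 2 and 1874, 1769 and 1938 RPM in set 3. The sets 1 and 3 of RPL27 were separate and the call held without any single library (log2 -0.49 ± 0.09 SE, adjusted p = 0.00502). RPL6 averaged 2573 ± 177 and 3402 ± 525 RPM, and RPL24 352 ± 24.1 and 450 ± 78.4 RPM. RPL6 lost its call without siCTRL replicate 3, siPVRL4_1 replicate 1 or siPVRL4_2 replicate 1, and RPL24 without replicate 1 or 3 of either PVRL4 siRNA (adjusted p up to 0.106 and 0.126). With quantile scaling RPL6 was at adjusted p = 0.0768. The count was 11 with TMM scaling, 12 by edgeR, 14 by DESeq2, 3 without siCTRL replicate 3, 1 without siPVRL4_1 replicate 1, 2 without siPVRL4_1 replicate 3, 1 without siPVRL4_2 replicate 1 and 4 without siPVRL4_2 replicate 3. Lower calls over all genes were 567 with TMM scaling, 566 by edgeR and 426 by DESeq2, beside 418 as deposited. Summed, the 49 genes held 91935 to 96341 RPM in set 1 and 104215 to 105328 RPM in set 3. The share of reads in the 100 most abundant genes, given above, also was lower in set 1 than in set 3. Ribosomal protein genes that rank among those 100 count in that share, so it is not a separate observation. Its part in these differences was not tested.

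Luminal epithelial genes as a list were at a median of 0.01, with 2 higher and 3 lower of 23, beside 5.18% and 3.75% of all genes. SCGB2A2, described above, and MUC1, a surface mucin, were lower. MUC1 was at 29.2, 26.1 and 34.8 RPM in set 1, 31.6, 28.1 and 33.6 RPM in set 2 and 47.9, 45.5 and 59.8 RPM in set 3, so set 3 alone was high (log2 -0.75 ± 0.10 SE, adjusted p = 0.000491). XBP1, a secretory transcription factor, was lower at 1038 ± 171 against 1260.4 ± 89.7 RPM and GATA3, a luminal transcription factor, higher at 33.4 ± 4.77 against 24.4 ± 7.73 RPM, and both overlapped between the sets. XBP1 lost its call without any 1 of 6 libraries (all but siCTRL replicate 2, siPVRL4_1 replicate 1 and siPVRL4_2 replicate 2) and GATA3 without siCTRL replicate 1, siCTRL replicate 3, siPVRL4_2 replicate 1 or siPVRL4_2 replicate 3. By DESeq2 GATA3 was at adjusted p = 0.0502. The 2 higher calls fell to 1 with TMM scaling and to 0 or 1 without any 1 library other than siPVRL4_1 replicate 2.

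**Figure D3:**
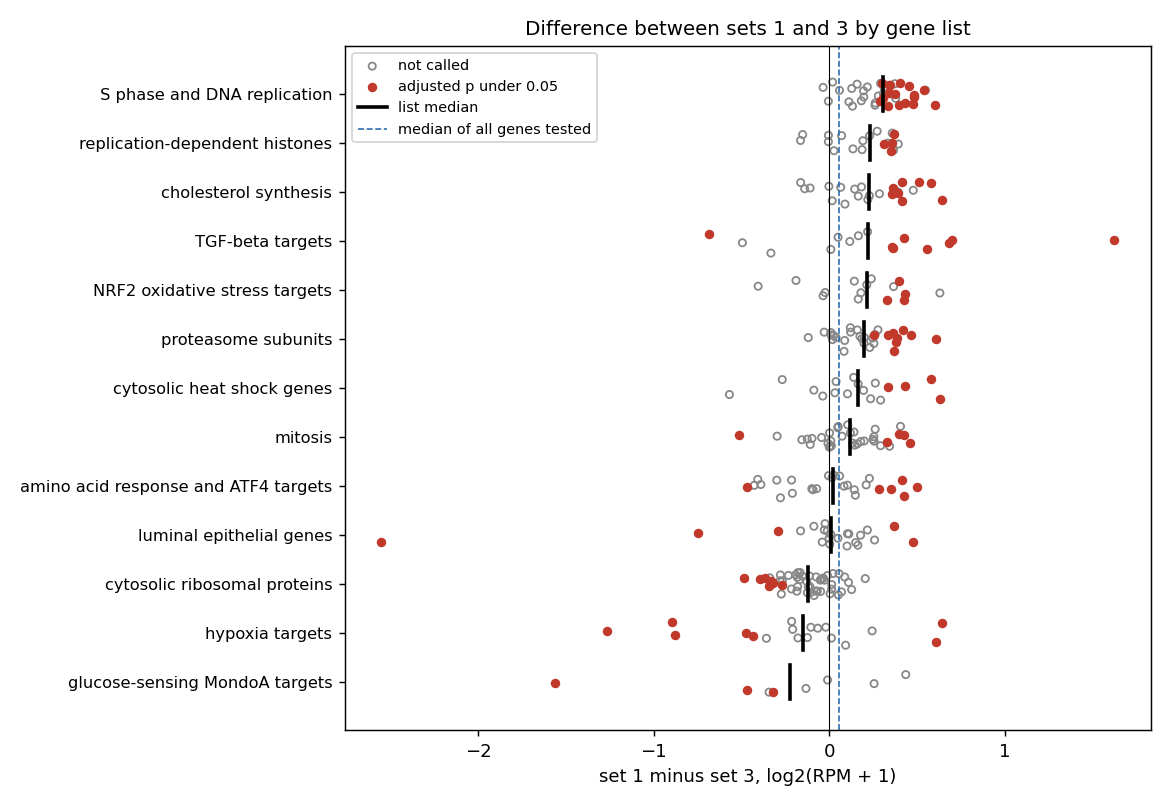
Difference between sets 1 and 3 on the log2(RPM + 1) scale for each tested gene of the 13 lists described, with called genes filled, list medians as black bars and the median of all tested genes (0.05) as a dashed line. S phase genes lie highest, at a median of 0.31, and MondoA targets lowest, at -0.23. Vertical scatter within a list only separates the points.

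The list counts also depended on the model, as did the counts over all genes. Without limma's trend 106 of all 11150 genes were higher and 150 lower in set 1. With the siRNA group term left out 69 were higher and 83 lower. A list count of 0 below stands beside these low totals. Without limma's trend the calls higher in set 1 were 4 for S phase, 1 for cholesterol, 3 for TGF-beta targets, 1 for hypoxia targets and 0 for mitosis, histone, proteasome, heat shock, NRF2, amino acid response and luminal genes. The calls lower in set 1 were then 4 for hypoxia targets, 2 for luminal genes, 1 for MondoA targets, 1 for amino acid response genes and 0 for ribosomal proteins, mitosis and TGF-beta targets. With the siRNA group term left out, so that libraries were not paired, the higher calls were 3 for S phase, 2 each for TGF-beta targets, heat shock and amino acid response, 1 each for histones, cholesterol, hypoxia targets and proteasome, and 0 for mitosis, NRF2 and luminal genes. The lower calls were then 2 for luminal genes, 1 each for hypoxia targets, MondoA targets, amino acid response and ribosomal proteins, and 0 for mitosis and TGF-beta targets. The higher proteasome count was 6 by TMM scaling and 4 by DESeq2, and the S phase count 9 by DESeq2. Over all genes the higher calls were 348 by TMM scaling and 257 by DESeq2. Without a filter on low values the higher calls were 9 for S phase, 6 for cholesterol, 3 for proteasome and 2 for TGF-beta targets. Of the 16323 genes then tested, 199 were higher.

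Of the other lists written, 23 that cover 5 to 42 tested genes each held 0 to 6 higher and 0 to 2 lower genes, beside 5.18% and 3.75% of all genes, with medians from -0.10 to 0.33. The highest counts among them were 6 of 28 genes of MYC and ribosome biogenesis (median log2 0.18) and 6 of 35 of the spliceosome and RNA-binding list (0.15), all higher in set 1. Without limma's trend these counts were 0 and 1, beside 106 higher calls over all 11150 genes.

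Interferon-induced genes did not share a direction between the pairs. IFI6 and BST2 were among the members of that list with the highest mean in siPVRL4_1 libraries. IFI6, a membrane protein that interferon induces, was at 1766 RPM in siPVRL4_1 replicate 1, 315 RPM in replicate 2 and 863 RPM in replicate 3, against 24.4 to 33.0 RPM with siCTRL and 30.7 to 57.6 RPM with siPVRL4_2. BST2 (tetherin), which holds budding virus at the cell surface, was at 590, 165 and 471 RPM in siPVRL4_1 replicates 1, 2 and 3. In both genes the siPVRL4_1 library of set 1 was highest and that of set 2 the lowest of its group. Between sets 1 and 3, 0 of 37 tested members of the list were called in either direction by limma, while at an unadjusted p under 0.05 there were 0 higher and 1 lower, and on the recovered reads edgeR called 8 higher and DESeq2 called 0 higher. Without siPVRL4_1 replicate 1, 5 were called lower by limma. Summed over 38 genes, the list held 8385, 1362 and 3972 RPM in siPVRL4_1 replicates 1, 2 and 3, between 295 and 329 RPM with siCTRL and 312, 340 and 473 RPM with siPVRL4_2.

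**Figure D4:**
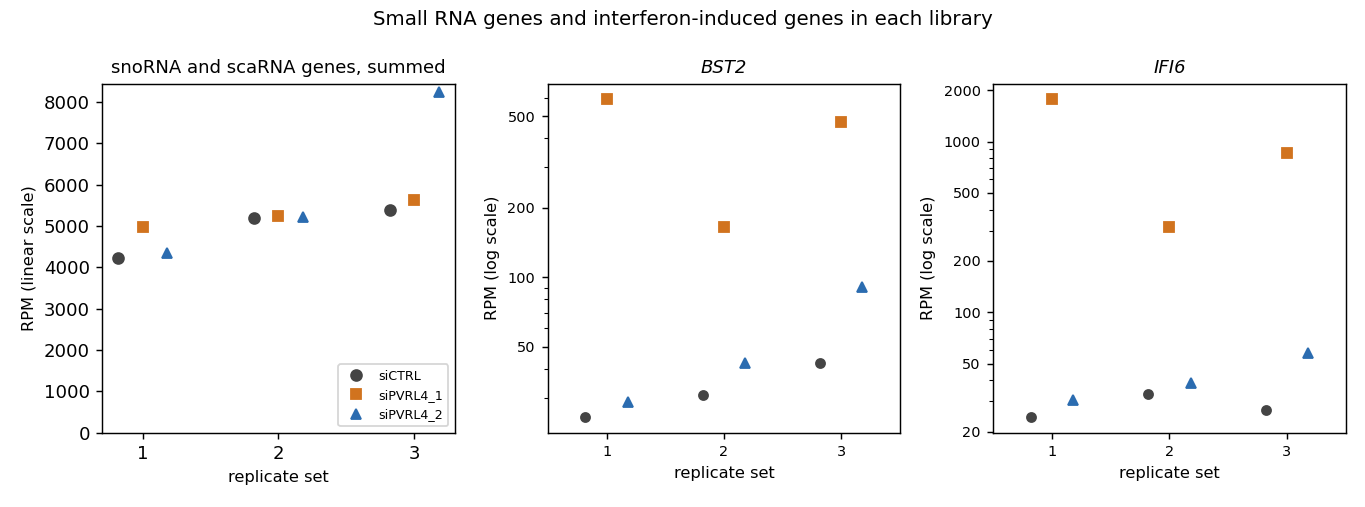
Summed RPM of the 92 snoRNA and scaRNA genes (left, linear axis from 0) and RPM of BST2 and IFI6 (log axes) by replicate set, with 1 point per library. The siPVRL4_2 library of set 3 reaches 8245 RPM of small RNA genes, and the siPVRL4_1 libraries stand above the other groups for the interferon-induced genes in every set.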

How the data were processed

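The deposited table gives RPM for each of 9 libraries, that is reads scaled by the authors to a fixed library total. Per the labels' protocols, libraries were made with an Ion AmpliSeq transcriptome kit from 100 ng of total RNA. The build is hg19 per the submitters' processing notes, and the aligner and counter are not given in the sources used here. Groups and replicate numbers came from the sample titles. Each library's values were whole multiples of what 1 read is worth (100% of values within 0.1 read), which gave the read totals. For siPVRL4_2 replicate 1 this step lies so close to 0.1 RPM that a standard check of steps could not decide it, and a finer search was used. The recovered reads served only the alternatives by edgeR 4.0.16 and DESeq2 1.42.0, and those results rest on that search. PCR reads carry no molecular identifiers, so read totals do not count molecules, and a count of 3 reads is 0.280 to 0.299 RPM.

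The main test was limma 3.58.1 (R 4.3.3, trended prior) on log2(RPM + 1), which understates changes of low genes, for genes of at least 1 RPM, two-sided with Benjamini-Hochberg adjustment over 11150 genes and a threshold of 0.05. SE is limma's, and SD is over the 3 libraries of a set. Deviations of libraries from their siRNA group means correlated across genes at 0.25 to 0.42 for the 9 pairs with the same number and -0.34 to -0.03 for the 18 others, so the numbers were taken to pair libraries. Deviations within a group sum to 0, so the negative values are not separate evidence. The pairing was judged on the same values that the comparison describes. No 2 libraries of a group were duplicates by a chi-square test of their reads. The script was tested on simulated data. The comparison and the gene lists were chosen with earlier results of these data known, and 13 of 41 lists were picked for description after their values were seen. Named genes are PVRL4, ERBB2, the 12 higher and 12 lower genes of largest difference (at least 10 RPM, same direction in all 3 pairs), up to 4 called genes of smallest adjusted p per described list and the interferon genes highest with siPVRL4_1. Some genes that this rule names are not reported here. The small RNA genes and their hosts were added after the values were seen. Alternatives were other pseudocounts, filters, scalings, tools and fits, and leaving out libraries.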

Additional observations from a re-analysis of the deposited data

Results flagged for a closer look

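The type I interferon list went opposite ways in the PVRL4 siRNA pairs: the median difference between replicate 1 and replicate 3 on the log2(RPM + 1) scale was 1.23 with siPVRL4_1 and -0.46 with siPVRL4_2. It was picked as a list of at least 5 tested genes with medians past 0.3 in both directions, a limit set after the values were seen. With 1 pair per siRNA the difference between the pairs was not tested.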

How the results depend on the processing

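As deposited, 578 genes were higher and 418 lower in set 1. The higher count was 345 with median-of-ratios scaling, 348 with TMM, 355 with quantile scaling, 362 by edgeR, 257 by DESeq2 and 354 in a fit of the 6 libraries alone. Without a filter the counts were 199 and 168, and without limma's trend 106 and 150. With no replicate block, that is with the siRNA group term left out so that libraries were not paired, they were 69 and 83. Leaving out all siCTRL libraries gave 169 and 149, all siPVRL4_1 libraries 110 and 131, and all siPVRL4_2 libraries 130 and 155. Leaving out 1 library gave 117 to 509 higher and 159 to 406 lower genes. In the 6 libraries of sets 2 and 3, 330 genes were higher in set 2 in place of 214. The cause of these changes was not tested. The ERBB2 difference (log2 -0.05) ranged from -0.22 to 0.044 with 1 library left out, above 0 without siCTRL replicate 1 or 3 or siPVRL4_1 replicate 1 or 3, and was 0.040 without all siCTRL libraries and 0.073 without all siPVRL4_1 libraries. PVRL4 stayed uncalled and kept its sign, at log2 0.017 to 0.30 with 1 library left out. Of 71 named genes that were called, 19 were called under all 25 alternatives, and 3 small RNA genes under the 24 that test them. None of the 71 changed sign. Recomputing RPM without snoRNA and scaRNA genes, chosen after seeing the data, gave 579 and 423. Depth limits low genes most: 1 read is 0.0934 to 0.0998 RPM.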
